A study of Mus musculus with 48 samples.

Results

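The WNT ligands Wnt2, Wnt5a, Wnt5b, Wnt9a, Wnt11 and Wnt16 were followed over the hair cycle of 3 skin domains and in the ear. They were taken by gene name, and all 6 are present among the 46983 genes of each deposited table, which lists 19 WNT ligands in all. Whole skin of C57BL/6 mice from the chin, the ventrum and the dorsum had been sequenced at competent telogen, early, mid and late anagen, catagen and refractory telogen, with 2 or 3 libraries for each of the 18 combinations. A separate table holds 2 libraries of telogen ear skin, 3 of the cartilage/muscle complex of the ear and the same 2 dorsal competent telogen libraries, so that 48 libraries are distinct. The labels name no treatment and give neither ages nor which libraries share a mouse, so that p-values measure the spread between libraries, which may be technical. Levels are FPKM, that is, fragments scaled to the length of the transcript and the mapped fragments of the library, which takes out transcript length and lets ligands be compared with each other. Differences are on the log2(FPKM + 1) scale, which understates the change of low genes such as Wnt2. In whole skin, fewer cells of a type and less RNA per cell cannot be told apart.

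WNT proteins are lipid-modified secreted signals that need Porcn and Wls to leave the cell and that bind Frizzled receptors. Together with the co-receptors Lrp5 and Lrp6 they stabilise beta-catenin, which acts with Lef1 and the other TCF factors on target genes and is needed for hair follicles to enter anagen. Wnt5a, Wnt5b and Wnt11 are known mainly for signals that do not use beta-catenin, through receptors such as Ror2 and Ryk and the planar polarity proteins. Wnt2, Wnt9a and Wnt16 have been tied to beta-catenin signaling in several tissues, Wnt9a for example in the forming joint.

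On GRCm38 with GENCODE vM21, Wnt2 lies at chr6:17988940-18030585 on the minus strand, Wnt16 at chr6:22288227-22298522 on the plus strand and Wnt5b at chr6:119432531-119544347 on the minus strand. Wnt11 lies at chr7:98835112-98855195, Wnt9a at chr11:59306928-59333552 and Wnt5a at chr14:28504750-28527448, all on the plus strand. All 6 are protein-coding. Another 3 genes overlap members on the opposite strand, namely Gm2670 in Wnt5a, Fbxl14 in Wnt5b and Gm8398 in Wnt11, and the Nextera libraries did not keep strand, so that reads from the shared stretches cannot be told apart. Across the 43 skin libraries Gm2670 was at 0.05 to 0.82 FPKM, Gm8398 at 0 to 0.89 FPKM and Fbxl14 at 1.34 to 4.62 FPKM. The last range lies close to that of Wnt5b, at 1.62 to 6.67 FPKM.

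Promoter sequence was available for 5 of the 6 members, as 8 windows of 250 bases before a RefSeq transcription start on GRCm38.p6. Of these, 3 are printed 5′ to 3′ on the strand of the gene: those of Wnt2 and Wnt16, the members whose levels spanned the widest range over the groups, and the first start of Wnt11, which alone holds more than 1 of the motifs searched. Capitals mark motif matches.
Wnt2, chr6:18030446-18030695, minus strand: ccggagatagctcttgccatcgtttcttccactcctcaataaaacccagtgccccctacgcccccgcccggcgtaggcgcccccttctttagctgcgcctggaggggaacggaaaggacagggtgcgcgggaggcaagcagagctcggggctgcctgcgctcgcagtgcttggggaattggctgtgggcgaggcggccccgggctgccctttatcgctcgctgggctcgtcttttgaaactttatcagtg
Wnt16, chr6:22287977-22288226, plus strand: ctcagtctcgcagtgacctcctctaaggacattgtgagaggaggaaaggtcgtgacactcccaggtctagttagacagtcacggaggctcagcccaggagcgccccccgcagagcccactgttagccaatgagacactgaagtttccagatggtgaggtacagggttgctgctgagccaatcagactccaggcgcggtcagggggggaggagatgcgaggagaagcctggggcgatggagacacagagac
Wnt11, chr7:98834862-98835111, plus strand: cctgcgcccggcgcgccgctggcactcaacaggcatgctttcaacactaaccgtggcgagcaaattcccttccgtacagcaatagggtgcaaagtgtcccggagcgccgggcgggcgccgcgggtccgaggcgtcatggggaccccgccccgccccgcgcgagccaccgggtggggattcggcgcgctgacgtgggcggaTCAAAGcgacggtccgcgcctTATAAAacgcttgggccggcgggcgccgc
The motifs searched on both strands were the TCF/LEF cores CTTTGA and CTTTGT, the TATA box TATAAA and the E-box CACGTG, none of which overlapped another in these windows. Of 32851 promoter windows of the same length, 13.8% held CTTTGA, 16.5% CTTTGT, 12.4% TATAAA and 6.02% CACGTG. Wnt11 carried CTTTGA on its minus strand at bases -50 to -45 from the start and TATAAA at -29 to -24. No match was found in the Wnt2 and Wnt16 windows, and elsewhere Wnt9a held CACGTG at -228 to -223 and the third start of Wnt5b CTTTGA at -71 to -66. The Wnt2 window holds 20 CpG dinucleotides at 63.6% GC, that of Wnt16 9 at 59.2% GC and that of Wnt11 37 at 70.8% GC. A match or its absence is a description of these letters only.

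Several stage labels went against proliferation genes and Lef1, and this touches every comparison between stages. The mean log2(FPKM + 1) of 6 proliferation genes, all detected in every skin group, was 5.34 to 5.45 in libraries labelled chin competent telogen, 5.44 to 5.66 in ventral competent telogen and 4.37 to 4.40 in dorsal competent telogen. These lie in the range of anagen libraries. Libraries labelled ventral early anagen gave 2.36 to 2.68, below the 2.75 to 3.16 of all refractory telogen libraries. Lef1 followed the same split, with 4.78 to 6.2 FPKM in ventral early anagen, 4.3 to 11.36 FPKM over the refractory telogen libraries and 27.01 FPKM or more in the others. The 9 markers found of the hair matrix and shaft split otherwise. Their mean log2 level was 6.93 to 7.14 in chin and ventral competent telogen and 8.73 in dorsal competent telogen. It was 5.68 to 5.84 in dorsal early anagen. Ventral and dorsal refractory telogen had 8.28 to 8.41, against 8.62 to 9.31 in mid and late anagen. Each dorsal competent telogen library was nearest to a chin late anagen library (r = 0.983 across genes). Proliferation genes were also high in catagen, at 4.92 to 5.58 over the domains. Dorsal catagen, at 5.53 to 5.58, lay above dorsal mid and late anagen, at 4.99 to 5.11. The stage names below are therefore labels. The tests over stages, the contrasts of anagen with telogen and the domain test at early anagen are given with and without competent telogen or ventral early anagen. No alternative leaves out the dorsal catagen group, which holds the lowest Wnt11 and Wnt9a levels. At competent telogen the labels of all 3 domains are in doubt, so the domain test at that stage and the contrasts of refractory with competent telogen have no such alternative. Whole fragments leave steps in the FPKM of genes with 1 transcript, and by these steps the depth was 6757225 to 26538919 fragments per skin library with a median of 13073827. A single fragment of Wnt2 is then worth 0.018 to 0.071 FPKM.

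**Figure D1:**
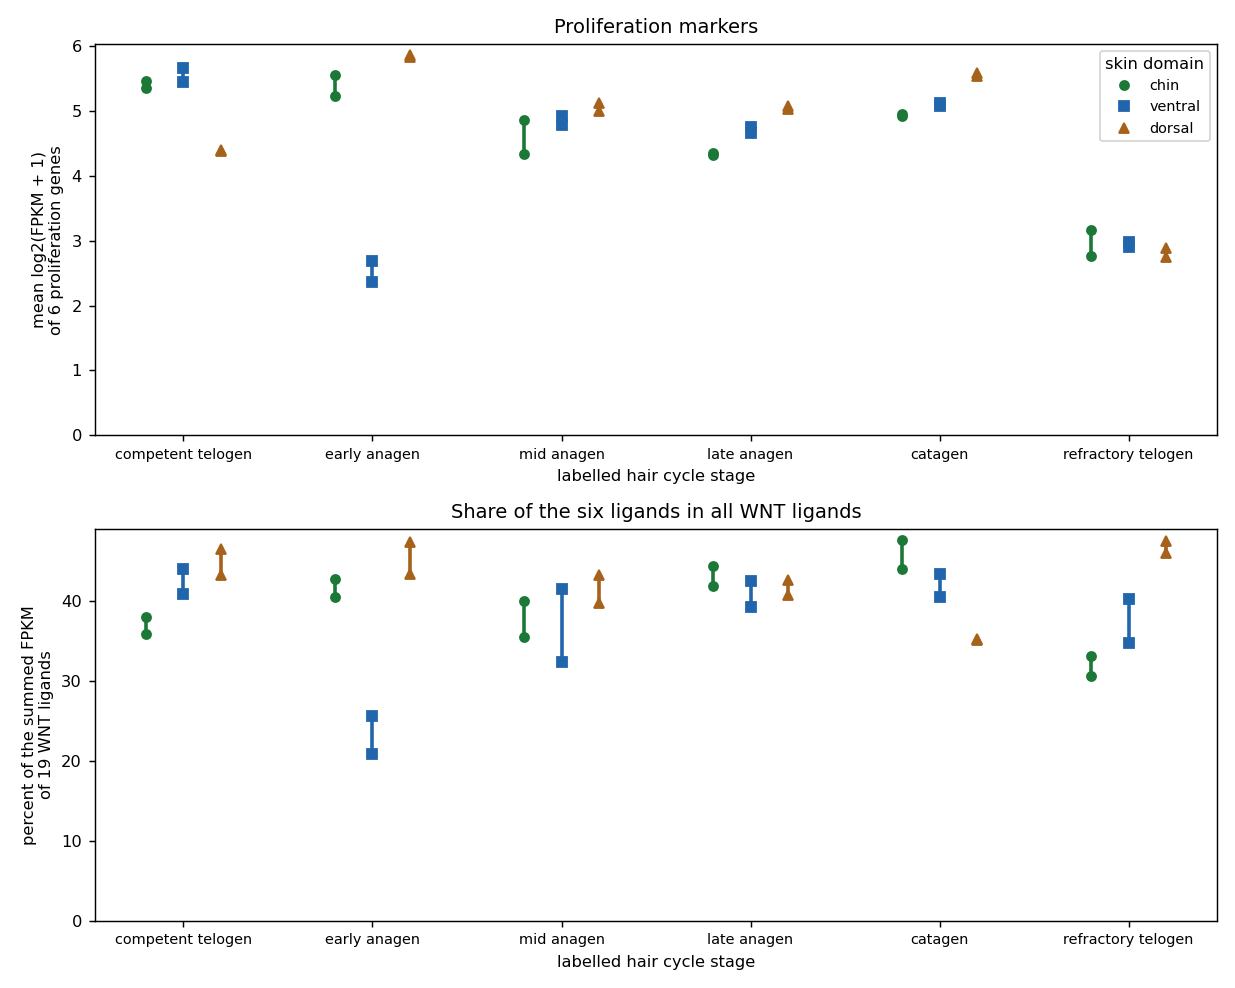
Top, mean log2(FPKM + 1) of 6 proliferation genes in each skin domain and labelled stage, and bottom, the percent of the summed FPKM of 19 WNT ligands that came from the 6 ligands. Symbols joined by a line are the lowest and highest library of a group. Ventral early anagen is low in both panels, at 2.36 to 2.68 and 20.9 to 25.6%, and competent telogen is high for proliferation genes, at 4.37 to 5.66 over the domains.

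Wnt5a and Wnt11 were the abundant members. Their median over the 43 skin libraries was 22.5 and 23.7 FPKM, close to Wnt3 at 26.1 and Wnt10a at 21.9 FPKM, ligands known from the hair matrix and epidermis. Wnt5b followed at 2.89 FPKM, Wnt9a at 1.6, Wnt16 at 1.13 and Wnt2 at 1.02 FPKM. These 6 ligands together made up between 20.9% and 47.7% of the summed FPKM of all 19 ligands in skin. Wnt1, Wnt2b, Wnt7a, Wnt8b and Wnt9b did not reach 0.5 FPKM in any skin library, whereas Wnt5a, Wnt5b and Wnt11 reached it in all 43, Wnt9a in 42, Wnt16 in 41 and Wnt2 in 33. All 6 members passed the filter of 0.5 FPKM in 2 libraries and were tested with 21257 genes in all.

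All 6 members changed over the stages in a way that differed between the domains (limma, test of the domain by stage interaction, adjusted p from 1.44e-11 for Wnt5a to 0.0131 for Wnt9a). This holds for 73.3% of all genes tested, and the Wnt9a call was lost without dorsal catagen replicate 1 (adjusted p = 0.0940). Within a domain, 4 members differed among stages in the chin, against 66.2% of all genes, 5 in the ventrum, against 70.2%, and 5 in the dorsum, against 68.5%. The exceptions were Wnt5b (adjusted p = 0.0701) and Wnt9a (0.0698) in the chin, Wnt9a in the ventrum (0.752) and Wnt5a in the dorsum (0.278), all by limma. Chin Wnt5b passed after rescaling to TPM (limma adjusted p = 0.0476). Chin Wnt9a passed after scaling by median of ratios or quantile normalization (limma adjusted p = 0.0148 for each). It also passed in a fit of only the chin libraries (limma adjusted p = 0.00335). The ventral Wnt9a result depended on its refractory telogen pair, whose libraries were at 3.02 and 0.68 FPKM. The chin call of Wnt11 (adjusted p = 0.0225) was lost without catagen replicate 1 (0.0822) or refractory telogen replicate 3 (0.0512) and in a fit of only the chin libraries (0.127). In the dorsum the Wnt9a call was lost without catagen replicate 1 (0.101) and the Wnt16 call after quantile normalization (0.0815). Without the competent telogen groups, or without ventral early anagen in the ventrum, no member changed its side of the threshold in these tests over stages. Among the domains at a given stage, 4 members differed at competent telogen, against 54.0% of all genes, 4 at early anagen, against 51.6%, and 1 at mid anagen, against 38.1%. None passed at late anagen, against 20.8% of all genes, although Wnt16 had an unadjusted limma p of 0.0208. In a fit of only the late anagen libraries Wnt5a passed (limma adjusted p = 0.0029). At catagen 2 passed, against 42.9%, and at refractory telogen 3, against 42.2%. With 6 members, 1 call more or less moves their share by more than most of these gaps, so nothing particular to the members is read from the counts.

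**Figure D2:**
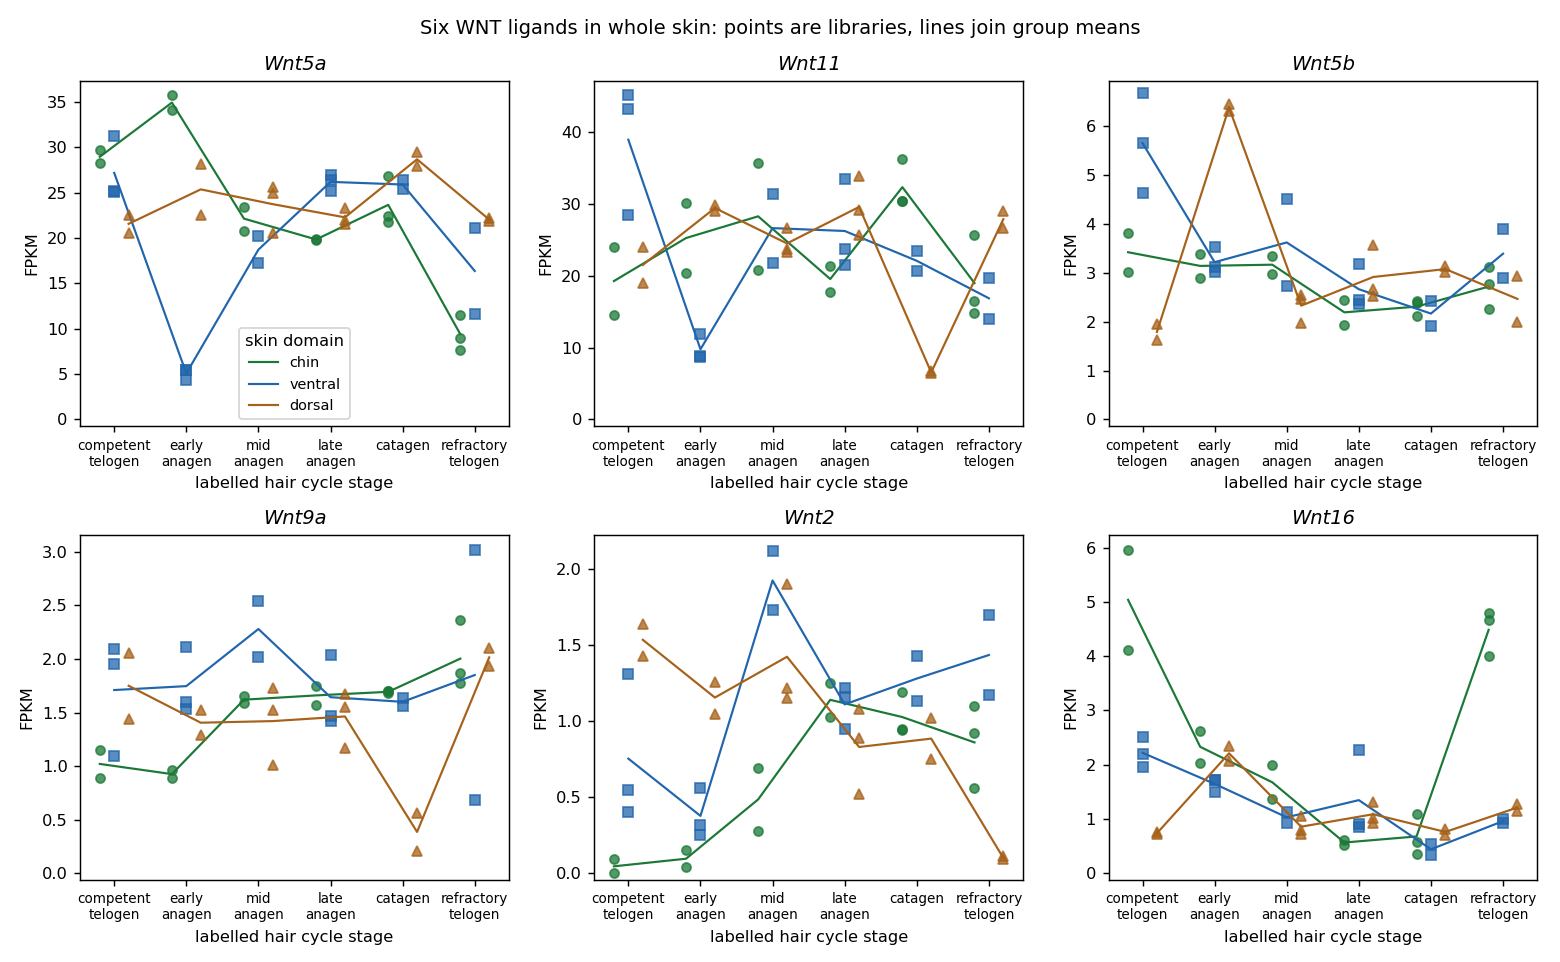
FPKM of each ligand (vertical axis, linear, from 0) by labelled hair cycle stage for chin, ventral and dorsal skin. Each point is a library and lines join group means. Wnt5a and Wnt11 drop in ventral early anagen to 5.07 and 9.76 FPKM on average, Wnt11 and Wnt9a in dorsal catagen to 6.54 and 0.385 FPKM, and Wnt16 is high in both chin telogen groups.

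Wnt5a, a ligand of Ror2 that is known from the dermal papilla and the hair matrix, was steady in dorsal skin and varied widely in the others. In the chin its levels were 29.63 and 28.24 FPKM at competent telogen, 35.71 and 34.1 at early anagen, 23.43 and 20.81 at mid anagen, 19.92 and 19.73 at late anagen, 21.75, 26.78 and 22.39 at catagen and 7.63, 11.55 and 8.97 at refractory telogen. In the ventrum they were 25.22, 31.23 and 25.03 FPKM, then 5.5, 5.42 and 4.3, 17.19 and 20.22, 25.19, 26.42 and 26.91, 26.42 and 25.34, and 21.12 and 11.59 over the same order of stages. The dorsum gave 20.54 and 22.56, 22.5 and 28.19, 20.54, 25.6 and 25, 21.53, 21.96 and 23.3, 29.44 and 27.88, and 22.17 and 21.87 FPKM. The ventral early anagen and chin refractory telogen libraries lay below every other skin library, the nearest of which was a ventral refractory telogen library at 11.59 FPKM. Both groups are also low for proliferation genes and Lef1, with Lef1 at 4.78 to 6.2 FPKM and 4.3 to 8.72 FPKM. Dorsal refractory telogen, with Lef1 at 10.85 to 11.36 FPKM, had Wnt5a at 22.0 ± 0.212 FPKM (SD, n = 2).

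The contrast between ventral and chin skin at early anagen was the widest for Wnt5a. The means were 5.07 ± 0.671 FPKM (SD, n = 3) and 34.9 ± 1.14 FPKM (SD, n = 2), a ratio of 6.88, and the log2 difference of ventral minus chin skin was -2.57 with an SE of 0.161. Domains differed at this stage (limma adjusted p = 1.02e-13) but not past the threshold when the ventral group was left out (adjusted p = 0.0593). At refractory telogen the dorsal group lay above the chin by 1.17 on the log2 scale (SE 0.161) and the ventral group above the chin by 0.70 (SE 0.161, limma adjusted p = 3.41e-06 over the 3 domains). The ventral difference rests on 2 unequal libraries, and was 1.11 without ventral replicate 2 and 0.30 without replicate 1. The chin refractory telogen libraries also carried the most skeletal muscle RNA of all skin groups, with all 8 markers detected, a summed level of 9480 to 14500 FPKM against 186 to 5560 FPKM in the other skin groups. The part of this tissue in the result was not tested.

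Wnt11, a planar polarity ligand, had its lowest levels in dorsal catagen, at 6.4 and 6.68 FPKM, and in ventral early anagen, at 8.63, 11.85 and 8.79 FPKM. Its highest were in ventral competent telogen, at 45.14, 43.17 and 28.43 FPKM. In the chin it ran at 24.03 and 14.47 FPKM in competent telogen, 20.32 and 30.15 in early, 35.73 and 20.78 in mid and 21.28 and 17.78 in late anagen, 36.21, 30.41 and 30.32 in catagen and 16.43, 25.71 and 14.77 in refractory telogen. Libraries of a chin group thus differed widely, and most chin groups overlapped. The remaining ventral groups were at 21.8 and 31.43 FPKM in mid anagen, 23.74, 33.38 and 21.53 in late anagen, 20.66 and 23.47 in catagen and 19.73 and 13.97 in refractory telogen. Dorsal skin had 19 and 23.97 FPKM in competent telogen, 29.02 and 29.8 in early, 23.64, 26.57 and 23.24 in mid and 29.07, 25.69 and 33.92 in late anagen, and 29.04 and 26.68 in refractory telogen. Dorsal catagen was therefore far below the dorsal stages on either side of it.

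At catagen Wnt11 was lower in dorsal skin than in the chin (log2 difference -2.14, SE 0.252) and the ventrum (-1.61, SE 0.276), with no overlap of libraries (limma adjusted p = 1.99e-07 over the 3 domains). The chin mean was 32.3 ± 3.37 FPKM (SD, n = 3) and the dorsal mean 6.54 ± 0.198 FPKM (SD, n = 2). Proliferation genes were not low in dorsal catagen, at a mean log2 level of 5.53 to 5.58, above the 4.92 to 5.11 of the other catagen libraries. Dorsal catagen also stood apart from the other catagen libraries in Krt35, a keratin of the hair shaft, at 366 to 381 FPKM against 860 to 1184. The 9 hair matrix and shaft markers as a list differed less. Their mean log2 level was 8.37 to 8.44 in dorsal, 8.69 to 8.71 in chin and 8.88 to 9.07 in ventral catagen. Their summed level of 6730 to 6980 FPKM in dorsal catagen met the 6970 to 7520 FPKM of the chin. Mki67 was at 22.84 to 23.03 FPKM in dorsal catagen against 7.43 to 10.22 in the other catagen libraries. The mean log2 level of dermal papilla markers was 2.03 to 2.05 against 1.47 to 1.54, and that of 5 endothelial markers 2.56 to 2.67 against 1.97 to 2.07. The part of these differences in the low Wnt11 and Wnt9a levels was not tested. At early anagen the domains differed as well (adjusted p = 1.27e-05), a call that rested on the ventral libraries, since chin and dorsal skin alone gave an adjusted p of 0.581 by limma.

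Wnt9a was low throughout and shared the dorsal catagen minimum. There it was listed at 0.21 and 0.56 FPKM, below every other skin library, the nearest of which was a ventral refractory telogen library at 0.68 FPKM. In the chin it was 1.15 and 0.89 FPKM in competent telogen, 0.96 and 0.89 in early, 1.59 and 1.65 in mid and 1.57 and 1.75 in late anagen, 1.7, 1.7 and 1.68 in catagen and 2.36, 1.87 and 1.78 in refractory telogen. The chin order was thus competent telogen and early anagen at the low end and refractory telogen at the high end. Ventral skin had 2.09, 1.95 and 1.09, then 1.53, 2.11 and 1.6, 2.02 and 2.54, 1.42, 2.04 and 1.47, 1.56 and 1.64, and 3.02 and 0.68 FPKM in the order of stages. The other dorsal groups were at 2.06 and 1.44 in competent telogen, 1.52 and 1.29 in early, 1.01, 1.52 and 1.73 in mid and 1.55, 1.67 and 1.17 in late anagen, and 1.93 and 2.1 FPKM in refractory telogen. The ventral refractory telogen pair held both the highest library of Wnt9a in skin and its lowest outside dorsal catagen, and no ventral stage difference for this gene can be read from that pair. At catagen dorsal skin was lower than the chin (log2 difference -0.97, SE 0.218) and the ventrum (-0.92, SE 0.239), with limma adjusted p = 0.00105 over the domains and 0.0627 without dorsal catagen replicate 1.

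Wnt5b, the paralogue of Wnt5a, was highest in a different pair of groups. It stood at 6.45 and 6.31 FPKM in dorsal early anagen and at 6.67, 5.66 and 4.63 FPKM in ventral competent telogen, against 4.51 FPKM or less in all 38 other skin libraries. The rest of the dorsum was at 1.96 and 1.62 in competent telogen, 1.97, 2.47 and 2.54 in mid and 3.56, 2.52 and 2.66 in late anagen, 3.02 and 3.13 in catagen and 2.94 and 1.99 FPKM in refractory telogen. Ventral skin after competent telogen had 3.01, 3.11 and 3.53, 2.73 and 4.51, 3.18, 2.37 and 2.44, 2.42 and 1.91, and 3.89 and 2.89 FPKM. The chin varied least, from 1.93 to 3.82 FPKM over its 14 libraries. Dermal papilla markers, all 10 detected, had a mean log2 level of 2.28 to 2.31 in dorsal early anagen and 2.20 to 2.27 in ventral competent telogen. Chin early anagen, at 2.08 to 2.19, and chin competent telogen, at 2.07 to 2.13, came close to this. Their Wnt5b means were only 3.14 and 3.42 FPKM. The dermal fibroblast markers were at 8.17 to 8.18 in dorsal early anagen and 8.53 to 8.60 in ventral competent telogen, against 7.99 or less elsewhere. The part of these cells in the Wnt5b levels was not tested. At early anagen dorsal skin exceeded the chin by 0.84 (SE 0.177) and the ventrum by 0.81 (SE 0.162), and at competent telogen it lay below them (log2 differences of -0.66, SE 0.177, and -1.25, SE 0.162), with limma adjusted p of 0.000163 and 1.22e-06.

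Wnt2, which signals through beta-catenin in several organs, had the widest relative range, and in its lowest groups it rested on very few fragments. In the chin it was listed at 0 and 0.09 FPKM in competent telogen and at 0.04 and 0.15 FPKM in early anagen, which correspond to an estimated 0 to 4.0 fragments per library. It was then 0.69 and 0.28 FPKM in mid anagen, 1.03 and 1.25 in late anagen, 0.95, 0.94 and 1.19 in catagen and 0.92, 1.1 and 0.56 in refractory telogen. All chin libraries from late anagen on exceeded all from competent telogen and early anagen. The dorsum ran the other way, with 1.64 and 1.43 in competent telogen, 1.26 and 1.05 in early, 1.15, 1.9 and 1.22 in mid and 1.08, 0.52 and 0.89 in late anagen, 1.02 and 0.75 in catagen and 0.09 and 0.11 FPKM in refractory telogen. The last pair had the largest depth of the skin table, 20381187 and 26538919 fragments, yet only an estimated 3.8 and 6.2 of these came from Wnt2. In the ventrum the levels were 0.55, 1.31 and 0.4 in competent telogen, 0.25, 0.32 and 0.56 in early, 1.73 and 2.12 in mid and 0.95 to 1.22 over the 3 late anagen libraries, 1.43 and 1.13 in catagen and 1.7 and 1.17 FPKM in refractory telogen.

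The domains differed for Wnt2 at 4 of the 6 stages by limma. At competent telogen dorsal skin exceeded the chin by 1.28 (SE 0.194) and ventral skin the chin by 0.71 (SE 0.177, adjusted p = 1.32e-05). The order at early anagen was again dorsum, ventrum, chin (adjusted p = 0.000389). At mid anagen, where Wnt2 was the only member called, the ventrum exceeded the chin by 0.99 (SE 0.194, adjusted p = 0.000573), but in a fit of the mid anagen libraries alone the adjusted p was 0.0519. At refractory telogen the order had turned, with the dorsum below the chin (log2 difference -0.75, SE 0.177) and the ventrum (-1.14, SE 0.194, limma adjusted p = 7.68e-05).

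Wnt16, on chromosome 6 as Wnt2 is, was highest in chin telogen. It stood at 5.96 and 4.12 FPKM in chin competent telogen and at 4, 4.8 and 4.66 FPKM in chin refractory telogen, above all 38 other skin libraries. Between these stages the chin passed through 2.03 and 2.63 in early, 1.99 and 1.36 in mid and 0.51 and 0.62 in late anagen and 0.36, 1.09 and 0.58 FPKM in catagen. The 2 chin telogen groups share this high level although proliferation genes separate them, at a mean log2 level of 5.34 to 5.45 and 2.76 to 3.16. In the ventrum the levels were 2.51, 1.96 and 2.19, then 1.72, 1.72 and 1.5, 1.13 and 0.93, 0.9, 0.86 and 2.28, 0.34 and 0.54, and 0.93 and 0.99 FPKM in the order of stages. The dorsum had 0.75 and 0.72, 2.07 and 2.35, 0.79, 0.73 and 1.05, 1.02, 1.31 and 0.93, 0.7 and 0.82, and 1.27 and 1.15 FPKM. The dorsal peak was thus early anagen, and it was smaller than the chin telogen levels. Ventral and dorsal skin lay below the chin at competent telogen, with log2 differences of -0.89 (SE 0.182) and -1.78 (SE 0.2), and at refractory telogen, with -1.48 (SE 0.182) and -1.31 (SE 0.182), at limma adjusted p of 1.1e-07 and 8.71e-08 over the domains.

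Ordered by group mean, few of the 17 neighbouring pairs of groups were separated by their libraries. The pairs without overlap numbered 2 for Wnt2, 4 for Wnt5a, 1 for Wnt5b, 2 for Wnt9a, 2 for Wnt11 and 2 for Wnt16. The extremes of each order were ventral mid anagen and chin competent telogen for Wnt2, chin and ventral early anagen for Wnt5a, dorsal early anagen and dorsal competent telogen for Wnt5b, ventral mid anagen and dorsal catagen for Wnt9a, ventral competent telogen and dorsal catagen for Wnt11 and chin competent telogen and ventral catagen for Wnt16.

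Whether the ligands followed hair growth was asked by setting the mean of the 3 groups labelled anagen against that of the 2 labelled telogen in each domain. The genes called in this contrast made up 36.5% of all genes in the chin, 21.2% in the ventrum and 39.0% in the dorsum, and 2 of the 6 members were called in each. In the chin Wnt5a was higher in anagen (log2 difference 0.56, SE 0.108, adjusted p = 0.000137) and Wnt16 lower (-1.25, SE 0.122, adjusted p = 3.3e-09, limma), beside a median over all genes of -0.10. In the ventrum Wnt5a (-0.55, SE 0.103, limma adjusted p = 0.000182) and Wnt5b (-0.38, SE 0.103, 0.00686) were lower in anagen. In the dorsum Wnt5b (0.56, SE 0.109, limma adjusted p = 0.000124) and Wnt2 (0.34, SE 0.119, 0.0250) were higher. Wnt5a thus moved in opposite directions in the chin and the ventrum.

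The ventral results depended on the groups whose labels and proliferation genes disagreed. With mid and late anagen set against refractory telogen alone, ventral Wnt5a was higher in anagen by 0.47 (limma adjusted p = 0.0159) and ventral Wnt11 by 0.62 (0.0435), where the full contrast had given -0.41 for Wnt11 without a call (0.0713). Ventral Wnt5b, at -0.10, and dorsal Wnt5b, at 0.06, no longer passed (limma adjusted p of 0.691 and 0.795). Early anagen, where dorsal Wnt5b was highest, is also left out here. In this narrower contrast chin Wnt16 passed at -1.43 and chin Wnt5a at 1.10, and dorsal Wnt2 at 0.92 (limma adjusted p of 7.6e-09, 9.35e-08 and 3.39e-05). Without the competent telogen groups neither ventral call remained, at -0.18 for Wnt5a and -0.08 for Wnt5b (limma adjusted p of 0.430 and 0.727). The chin and dorsal calls did remain, at 1.33 for chin Wnt5a, -1.19 for chin Wnt16, 0.94 for dorsal Wnt2 and 0.41 for dorsal Wnt5b. Their limma adjusted p were 6.38e-09, 2.14e-07, 8.62e-06 and 0.0209. Without ventral refractory telogen replicate 1 ventral Wnt5b stood at -0.30 (limma adjusted p = 0.06). In the full contrast dorsal Wnt2 was lost on leaving out any of 5 of the dorsal libraries, with adjusted p of up to 0.0959 over these and the scaling by median of ratios.

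**Figure D3:**
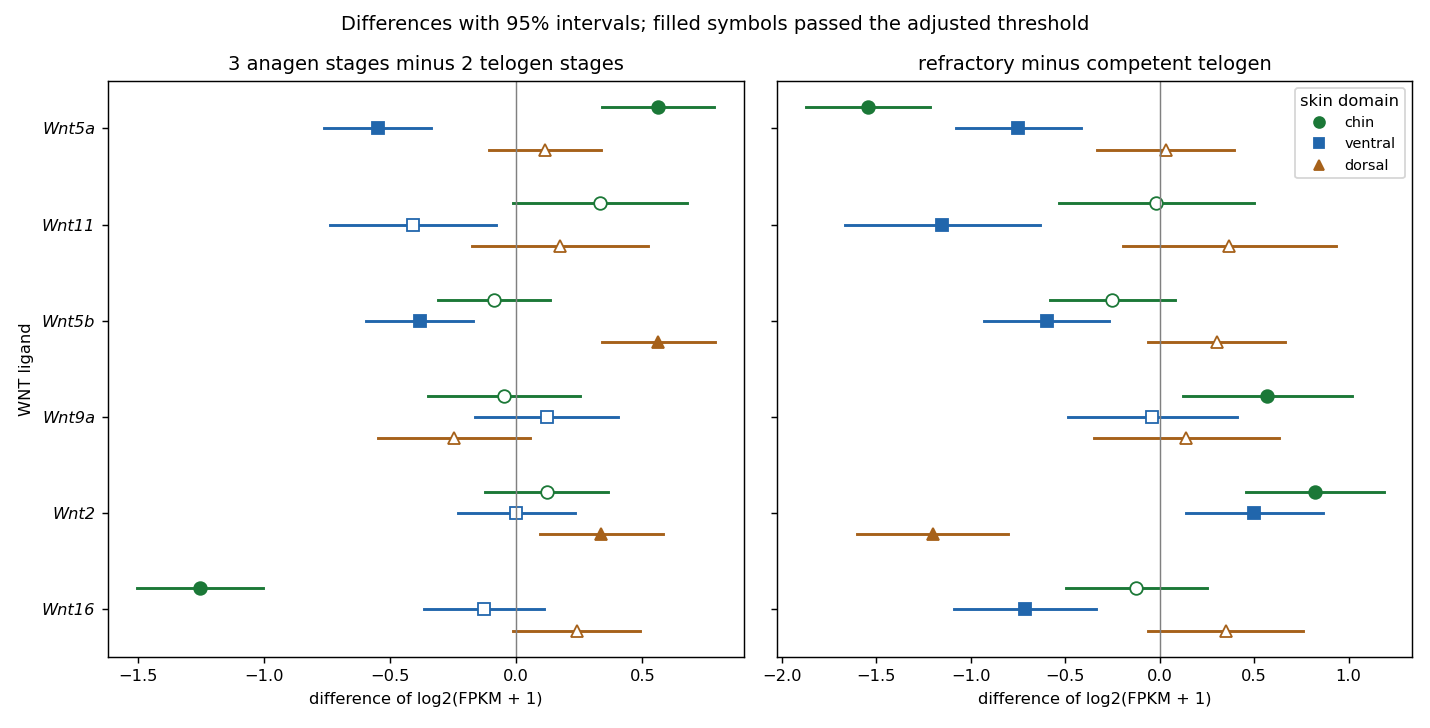
Differences of log2(FPKM + 1) with 95% intervals for each ligand in chin, ventral and dorsal skin. Left, the mean of the 3 labelled anagen stages minus the mean of the 2 telogen stages, and right, refractory minus competent telogen, with filled symbols where the limma adjusted p passed 0.05. Wnt16 stands at -1.25 in the chin on the left, and Wnt5a at -1.55 in the chin and Wnt2 at -1.20 in the dorsum on the right. Both panels use the same telogen libraries.

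Competent and refractory telogen were compared because the refractory phase is the part of the resting stage in which follicles do not answer growth signals. Genes called made up 36.3% of all genes in the chin, 42.6% in the ventrum and 22.2% in the dorsum. Members called numbered 3, 5 and 1. In the chin Wnt5a was lower in refractory telogen (log2 difference -1.55, SE 0.161, limma adjusted p = 7.46e-09), while Wnt2 (0.82, SE 0.177, 0.000465) and Wnt9a (0.57, SE 0.218, 0.0410) were higher. The Wnt9a call was lost on leaving out any of 4 of the 5 chin telogen libraries. It was also lost with a pseudocount of 0.1 (limma adjusted p = 0.052) and without a filter on low values (0.0721). Rescaling to TPM (0.0556) and quantile normalization (0.0966) gave no call either. In the dorsum Wnt2 alone was called, and it was lower (-1.20, SE 0.194, limma adjusted p = 3.07e-05), the reverse of its chin direction. The other dorsal members lay between 0.03 for Wnt5a and 0.37 for Wnt11, and the 95% interval of the Wnt5a difference ran from -0.33 to 0.39.

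In the ventrum, Wnt11 (-1.15, SE 0.252), Wnt5a (-0.75, SE 0.161), Wnt16 (-0.71, SE 0.182) and Wnt5b (-0.60, SE 0.162) were lower in refractory telogen and Wnt2 (0.50, SE 0.177) was higher, with limma adjusted p of 0.000432, 0.000377, 0.00206, 0.00338 and 0.0230. The median of all genes was itself at -0.22 in this contrast and at 0 after scaling by median of ratios, so that the fall of the members is partly shared by all genes. After that scaling Wnt5a stood at -0.36 (limma adjusted p = 0.0520) and Wnt5b at -0.27 (0.172), and neither passed, while Wnt11, Wnt16 and Wnt2 did. After quantile normalization Wnt16 was not past the threshold either, at -0.40 (limma adjusted p = 0.106). The 2 ventral refractory telogen libraries also differed from each other, with Wnt5a at 21.12 and 11.59 FPKM. Without replicate 2 the Wnt5a difference was -0.34 (adjusted p = 0.110) and that of Wnt5b -0.43 (0.101), and without replicate 1 the Wnt2 difference was 0.34 (adjusted p = 0.231, limma). The Wnt2 call was also lost without competent telogen replicate 1 (0.0824) or 3 (0.132), after rescaling to TPM (0.0943) and in a fit of only the libraries compared (0.0668).

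The lists of other pathway genes gave the setting for these contrasts, as counts beside the shares of all genes tested that passed in each direction. For refractory against competent telogen in the ventrum 34.5% of all genes fell and 8.12% rose. Of 16 WNT receptors and co-receptors 8 fell and 1 rose, with Fzd10 at -1.38 and Ptk7 among the falling and Fzd8 at 0.49 rising, at a median of -0.33. All 3 genes of WNT secretion and removal fell, with Notum at -1.17 and Wls at -1.29. Of the 8 tested among 13 other WNT ligands 6 fell, with Wnt10a at -0.99 and Wnt10b at -1.11. Of 10 secreted antagonists 8 fell, with Wif1, which binds WNT proteins, at -3.55 and Sfrp1 at -1.38, and 7 of 10 beta-catenin target genes fell, with Lef1 at -2.46. These lists hold both activators and inhibitors, and ventral competent telogen is one of the groups high for proliferation genes.

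In the chin, where 18.4% of all genes fell and 17.8% rose in the same contrast, 8 of the 16 receptors fell and 2 rose, with Ryk, a receptor of Wnt5a, at -0.83, Fzd10 at -1.79 and Fzd4 at 1.48. Of the tested 8 other ligands 4 fell and none rose, with Wnt10b at -1.07. Antagonists split, with Sfrp4 at 2.70 and Dkk2 at 1.46 among 4 that rose and Wif1 at -2.96 and Sfrp1 at -0.81 among 3 that fell. Of the planar polarity genes tested, 10 of 11, 4 fell and 1 rose, with Vangl2 at -0.64 falling. In the dorsum, where 11.3% of all genes fell and 10.8% rose, the counts were low, with 1 receptor up and 1 down, Fzd6 at 0.32 and Fzd10 at -0.80, 3 planar polarity genes up, and Lef1 at -1.45 as the single beta-catenin target that fell.

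For anagen against telogen the receptor list split in each domain. Of all genes 8.99% rose and 27.5% fell in the chin, 5.08% and 16.1% in the ventrum and 29.6% and 9.44% in the dorsum. In the chin 3 of 16 rose and 3 fell, with Fzd5 at 0.43 and Fzd9 at -0.90. In the ventrum 2 rose and 2 fell, with Fzd10 at 0.48 and Ror2, the Wnt5a receptor, at -0.44. In the dorsum 5 rose and 2 fell, with Fzd10 at 0.85 and Fzd5 at -0.57, and the planar polarity genes split 4 up and 3 down. All 3 secretion and removal genes rose there, with Wls at 0.89 and Notum at 0.50, as did 4 of 8 other ligands, with Wnt10b at 0.62 and Wnt6 at 0.52, while Wif1 stood at 1.94 and Lef1 at 1.03. All values are differences of log2(FPKM + 1) with adjusted p under 0.05 by limma.

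The ear table was made to compare telogen ear skin, where follicles rest for months, with dorsal skin and with the cartilage and muscle beneath the ear skin. Its dorsal libraries are those labelled competent telogen, whose proliferation genes were at 4.37 to 4.40, against 4.06 to 4.11 in ear skin and 0.29 to 0.32 in cartilage/muscle. Chondrocyte markers, 9 of 10 found in the table, summed to 1620 to 2030 FPKM in cartilage/muscle and to at most 3.56 FPKM in the skins, and the skeletal muscle markers to 16700 to 19500 FPKM in cartilage/muscle. The 2 skins differed far more in other markers. The mean log2 level of 9 hair matrix markers was 2.66 to 2.70 in ear skin and 8.73 in dorsal skin, that of 8 inner root sheath markers 4.18 to 4.29 and 10.90 to 10.92, and that of 7 dermal fibroblast markers 9.18 to 9.19 and 6.80. The part of these cells in the ligand differences between the skins was not tested. Of the 9 hair matrix markers, 8 were at 0 in all 3 cartilage/muscle libraries. Genes called made up 59.3% of 19299 for ear skin against dorsal skin, 71.1% for cartilage/muscle against dorsal skin and 66.5% for cartilage/muscle against ear skin, while members called numbered 4, 4 and 3. The contrasts share libraries, and the median of all genes was 0.33, 0.24 and -0.11.

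Wnt5a fell in steps from dorsal skin to ear skin to cartilage/muscle. It was at 20.54 and 22.56 FPKM in dorsal skin, 5.97 and 6.16 in ear skin and 1.67, 2.29 and 1.76 in cartilage/muscle, with no overlap. The differences on the log2 scale were -1.67 for ear skin against dorsal skin (SE 0.122, limma adjusted p = 8.84e-05) and -1.29 for cartilage/muscle against ear skin (SE 0.112, 0.000107). Wnt11 was at 19 and 23.97 FPKM in dorsal skin but at 6.7 and 5 in ear skin and 4.68, 6.02 and 3.85 in cartilage/muscle. It lay below dorsal skin in both ear tissues (-1.72, SE 0.217, limma adjusted p = 0.000846, and -1.95, SE 0.198, 0.000194), and the ear tissues overlapped (-0.23, 95% interval -0.72 to 0.25).

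Wnt16 rose most among the members in ear skin against dorsal skin. It stood at 2.83 and 2.14 FPKM there, at 0.75 and 0.72 in dorsal skin and at 0.68, 1.09 and 0.8 in cartilage/muscle. Ear skin exceeded dorsal skin by 1.00 (SE 0.151, limma adjusted p = 0.00180), and cartilage/muscle minus ear skin was -0.91 (SE 0.138, 0.00143). With dorsal refractory telogen as the dorsal group the first difference was 0.65 (limma adjusted p = 0.0114). Wnt5b ran in the opposite order to Wnt5a, with 1.96 and 1.62 FPKM in dorsal skin, 2.4 and 2.84 in ear skin and 3.26, 3.48 and 3.07 in cartilage/muscle. Its difference between cartilage/muscle and dorsal skin was 0.62 (SE 0.104, limma adjusted p = 0.00209). That between ear skin and dorsal skin, 0.38 (SE 0.114, 0.0296), was close to the median gene, at 0.06 after scaling by median of ratios (0.683) and -0.04 after quantile normalization (0.834).

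Wnt2 was at 1.64 and 1.43 FPKM in dorsal skin, 2.24 and 1.95 in ear skin and 0.44, 0.99 and 0.83 in cartilage/muscle. The cartilage/muscle libraries lay below both skins, with differences of -0.54 from dorsal (SE 0.156, limma adjusted p = 0.02) and -0.83 from ear skin (SE 0.156, 0.00374). The former was not past the threshold without either dorsal library (adjusted p of 0.105 and 0.0589). With dorsal refractory telogen as the dorsal group, where Wnt2 was at 0.09 and 0.11 FPKM, cartilage/muscle was higher by 0.66 (limma adjusted p = 0.00903) and ear skin by 1.49 (0.000569), so that cartilage/muscle lay below or above dorsal skin depending on the dorsal stage, while the ear skin mean was above dorsal skin with either (0.29 with competent telogen, limma adjusted p = 0.197). In that alternative Wnt5b no longer passed in cartilage/muscle (0.31, adjusted p = 0.0892) or ear skin (0.07, 0.715). Wnt9a, at 2.06 and 1.44, 1.54 and 1.17, and 2.38, 1.98 and 1.58 FPKM in the same order of tissues, passed in no contrast (limma adjusted p of 0.340, 0.550 and 0.118), but after quantile normalization it did for ear skin against dorsal skin (-0.61, 0.0327) and for cartilage/muscle against ear skin (0.52, 0.0328).

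**Figure D4:**
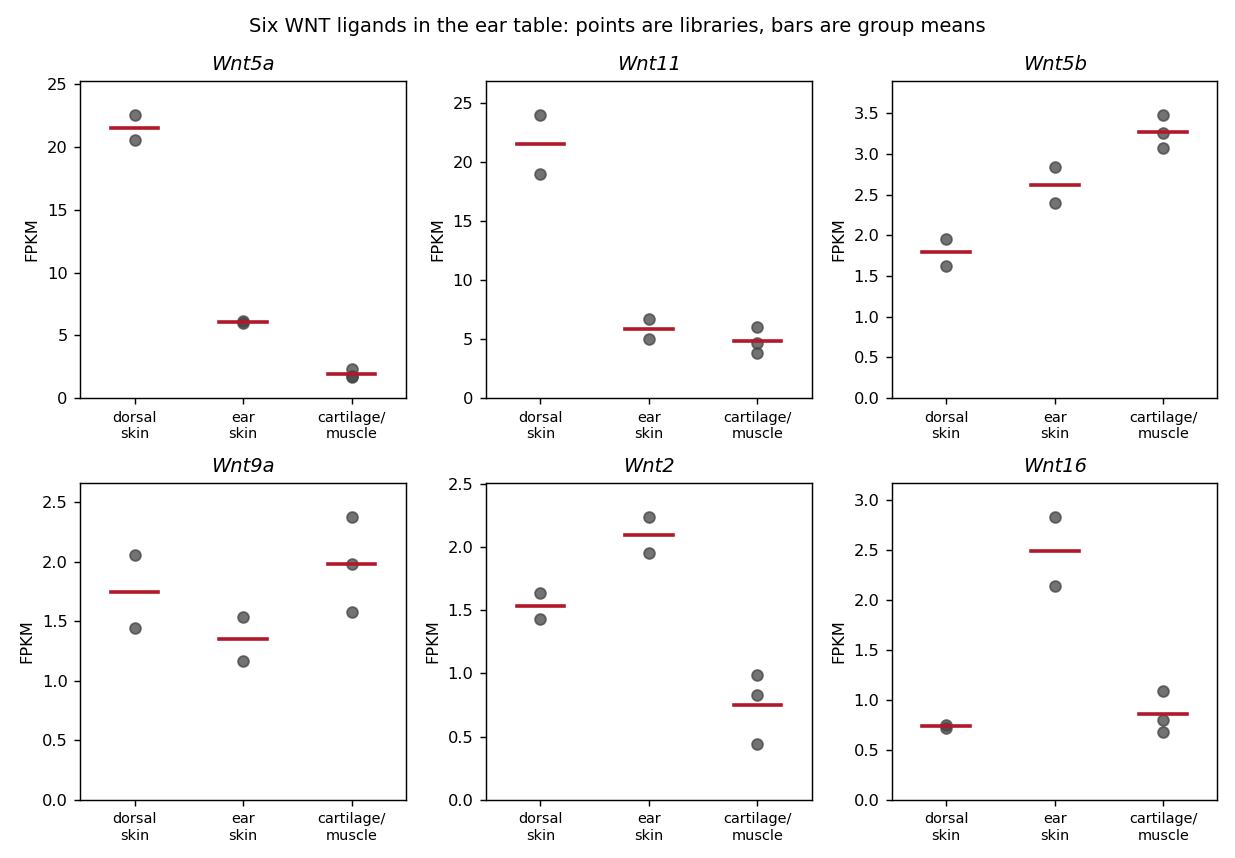
FPKM (linear axes from 0) of the 6 ligands in dorsal competent telogen skin, telogen ear skin and ear cartilage/muscle. Points are libraries and bars group means. Wnt5a and Wnt11 are highest in dorsal skin, at means of 21.5 FPKM for each, Wnt16 in ear skin, at 2.49 FPKM, and Wnt5b in cartilage/muscle, at 3.27 FPKM.

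The members made up most of the WNT ligand RNA of cartilage/muscle and little of that of ear skin. Their share of the summed FPKM of 19 ligands was 82.7 to 84.1% in cartilage/muscle, 16.5 to 17.1% in ear skin and 43.3 to 46.5% in dorsal skin. The sum itself was 14.3 to 19.2 FPKM in cartilage/muscle against 112 to 131 FPKM in ear skin. Of all genes 38.5% were lower in cartilage/muscle than in ear skin and 28.0% higher. All 7 other ligands tested were lower, led by Wnt10a at -4.57 and Wnt7b at -4.97, both known from epithelium. Among receptors 9 of 16 were higher and 4 lower in that contrast, with Fzd9 at 7.39 and Fzd8 at 1.59, and among the 8 antagonists tested 6 were higher, with Wif1 at 6.64 and Frzb, a cartilage protein that binds WNTs, at 6.23. In ear skin against dorsal skin, where 14.6% of all genes were lower and 44.7% higher, 7 of 16 receptors were lower and 3 higher, with Fzd5 at -2.09 and Fzd9 at 0.68, and Lef1 stood at -3.76.

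The genes whose 18 group means of log2(FPKM + 1) were most like each member were taken from about 14630 genes with a mean of at least 1 FPKM, as a description over groups that share stages and domains. For Wnt5a these were Nkd2 (Pearson r = 0.940), a feedback inhibitor of WNT signaling, Slc39a8 (0.933) and Fbp1 (0.918). For Wnt16 they were Slc16a14 (0.927), Il20ra (0.923) and Lgr6 (0.917), an R-spondin receptor. Wnt11 was nearest to Stx17 (0.891), Mok (0.878) and Gm12347 (0.865), Wnt9a to Dok1 (0.896), Cldn3 (0.895) and Abtb1 (0.893), and Wnt5b to Fndc4 (0.908), Adgra2 (0.890), which takes part in WNT7 signaling in blood vessels, and Ppic (0.884). Wnt2 had the loosest partners, Ube2j1 (0.813), Mdh2 (0.811) and Prkg2 (0.811). These values are the highest among many genes, so pairs of members, which were not picked that way, are not set against them. The strongest member pairs were Wnt2 with Wnt16 (-0.572), Wnt9a with Wnt11 (0.525) and Wnt5b with Wnt16 (0.479), and Wnt5a with its paralogue Wnt5b gave 0.071.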

How the data were processed

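Whole skin of 3 domains at 6 hair cycle stages (43 libraries), and ear tissues with 2 of the dorsal libraries repeated (7 libraries), had been sequenced after SMART-seq2 amplification and Nextera tagmentation. For the deposited values, which are FPKM of each gene to 2 decimals, the authors used mm10, GENCODE vM8 and RSEM 1.2.25. They state a batch correction and do not name the batches, so no batch could be compared here. Whether the deposited FPKM are from before or after it is not given in the sources used here. If from after it, the spread between libraries and the p-values depend on that correction. The deposited FPKM of genes with a single transcript still lie on steps of whole fragments, by which depth was estimated. What these steps say about the correction was not tested. Counts were not used here. Here log2(FPKM + 1) was modelled with limma 3.58.1 in R 4.3.3 with a variance trend, for genes with at least 0.5 FPKM in 2 libraries, with Benjamini-Hochberg adjustment over all genes at 0.05. The skin libraries were fitted as 18 groups, which share 1 estimate of the spread, and the ear table alone. Groups were read from the sample labels. Moderated tests (two-sided for differences) compared stages, domains, anagen with telogen, refractory with competent telogen, and the ear tissues.

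The 6 members, their named neighbours (the 3 genes with the highest correlation of group means) and all lists were chosen with earlier results of these data known. From a list at most 2 genes each way per comparison were named, by the size of the difference. Depth was estimated from 10457 genes with a single transcript, and fragment numbers carry counting error only, whereas the 95% intervals of differences are limma's and rest on the spread between libraries. The model was run on data simulated with independent noise and few changed genes. In the real contrasts many genes changed and in several the median gene shifted, so that check is not taken as support. Alternatives were other scalings, filters and pseudocounts, fits of only the libraries compared, a replicate block, each library left out, and 4 regroupings added after the data had been seen. Positions came from GENCODE vM21, promoters from RefSeq, and figures from Python 3.11.15 with numpy 2.4.6, pandas 2.3.3 and matplotlib 3.10.9. The ventral catagen replicate 1 library carries an ear location label but a ventral title and source name, and was kept as ventral.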

Additional observations from a re-analysis of the deposited data

Results flagged for a closer look

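The course of each ligand over the 6 labelled stages differed among chin, ventral and dorsal skin. All 6 members are listed here for this, although most genes passed the same test. By limma the adjusted p of the domain by stage interaction was 9.01e-07 for Wnt2, 1.44e-11 for Wnt5a, 2.03e-06 for Wnt5b, 0.0131 for Wnt9a, 6.98e-08 for Wnt11 and 2.31e-07 for Wnt16, and 73.3% of all genes tested passed as well. The Wnt9a value was 0.0940 without dorsal catagen replicate 1. The groups behind these values include ventral early anagen and competent telogen, whose proliferation genes go against their stage labels, and their part in the interaction was not tested. Groups had 2 or 3 libraries, too few to test single libraries as outliers.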

How the results depend on the processing

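Most member results kept their direction and their side of the threshold. Scaling by median of ratios changed the number of members called from 1 to 3 among domains at mid anagen and from 5 to 3 for refractory against competent telogen in the ventrum, and quantile normalization changed these to 2 and 2, domains at refractory telogen from 3 to 5 and cartilage/muscle against ear skin from 3 to 5. A pseudocount of 0.1 gave 1 in place of 0 for domains at late anagen. Fits of only the libraries compared gave 0 at mid anagen, 1 at late anagen, namely Wnt5a, and 2 for dorsal refractory against competent telogen. Over all genes they gave 2635 in place of 8092 at mid anagen and 7002 in place of 4432 at late anagen. For domains at refractory telogen they gave 3852 in place of 8972. The cause was not tested. Wnt5b in ear skin against dorsal skin turned to -0.037 after quantile normalization.

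With single libraries left out, members called ranged from 1 to 2 for domains at catagen, 0 to 1 at late anagen, 1 to 2 at mid anagen, 3 to 5 at refractory telogen and 1 to 2 for dorsal anagen against telogen, and Wnt9a in ventral refractory against competent telogen ranged from -0.669 to 0.59. Over all genes the late anagen count was 2614 and 2379 without chin late anagen replicates 1 and 2, and the dorsal refractory against competent telogen count of 4709 was 3130 without competent telogen replicate 2 and 3007 without refractory telogen replicate 1.

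Among regroupings added after seeing the data, members called fell from 2 to 0 for ventral anagen against telogen without the competent telogen groups, from 2 to 1 for dorsal anagen against telogen with mid and late anagen against refractory telogen, and from 4 to 2 among domains at early anagen without the ventral group, with 5540 in place of 10965 genes. The second of these turned ventral Wnt5a to 0.469 and Wnt11 to 0.615, and dorsal refractory telogen as the dorsal ear control turned Wnt2 in cartilage/muscle to 0.659.

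Same-numbered libraries of different groups did not deviate together (median r = 0.003, from -0.174 to 0.162), so no pairing by number was seen. A batch correction before deposit could have removed such shared deviations. A replicate block left 113 of 114 member results as they were and gave Wnt5b in ear skin against dorsal skin 0.398 (limma adjusted p = 0.0962). A minimum of 5 FPKM removes Wnt2, Wnt9a and Wnt16 from both tables and Wnt5b from the ear table, so member counts were not computed for it. In its lowest groups Wnt2 rests on an estimated 0 to 6.2 fragments per library, so its fold changes there are imprecise.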
